A study of Mus musculus with 36 samples.

Results

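The genes described here are 10 transcription factor genes of the mouse pluripotency network: Pou5f1, Nanog, Sall4, Esrrb, Tfcp2l1, Tbx3, Zfp42, Klf2, Klf4 and Klf5. They were chosen by name from 21887 protein-coding genes, and every HA peak over each gene and 20 kb on either side was taken, which gave 2 of 14314 H4K91Q peaks, 31 of 49155 H4K91R peaks, 62 of 69158 H4WT peaks and 4 of 3007 empty-vector peaks. The study mapped epitope-tagged histone H4 by HA ChIP-seq, which recovers DNA crosslinked to the tagged protein. The 4 groups were mouse embryonic stem cells stably expressing a PiggyBac transgene for 3HA-tagged H4K91Q (lysine 91 changed to glutamine), 3HA-tagged H4K91R (lysine 91 changed to arginine) or 3HA-tagged H4WT (wild type), and cells carrying the empty vector, which make no tagged histone. All were otherwise parental cells, with 1 library per group, and whether a line was a single clone is not given in the sources used here. The transgene is integrated by a transposase, and the labels name no change to the cells' own H4 genes, so tagged H4 is read beside untagged H4. Depth is unknown, since read numbers are not among the values of a peak list, and without replicates no difference between libraries could be tested. Peak lists hold no expression either, so the labelled cell type could not be checked against its markers.

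Pou5f1 (also called Oct4), Nanog and Sall4 are grouped here as core factors, though not the only ones, of the circuit that keeps stem cells undifferentiated. Esrrb, Tfcp2l1, Tbx3, Zfp42 (also called Rex1) and the Krüppel-like factors Klf2, Klf4 and Klf5 belong to its naive layer, which is sustained by LIF signalling and is shut down as cells leave the naive state. These factors bind each other's promoters and enhancers, so their loci are dense in regulatory sequence in stem cells. Histone H4 pairs with H3, and lysine 91 lies in the globular part of H4 where the H3-H4 tetramer meets H2A-H2B.

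Tagged H4WT had peaks at all 10 loci and H4K91R did too, whereas H4K91Q had peaks at a single locus, Zfp42, and the empty vector at 4 loci. H4K91Q was sparse at most genes: 18.9% of protein-coding genes had any H4K91Q peak in the same window, against 71.7% for H4K91R, 79.4% for H4WT and 14.7% for the empty vector. Within 1 kb of a gene end, a peak was present at 0 members for H4K91Q (1.29% of protein-coding genes), 8 for H4K91R (38.3%), 9 for H4WT (58.9%) and 0 for the empty vector (1.67%). The member without an H4WT peak at an end was Nanog, and those without an H4K91R peak there were Nanog and Tbx3. The 8 members with H4K91R at an end all had H4WT at an end too, as did 36.3% of coding genes, although at Sall4 and Esrrb the ends were opposite ones. Over all annotated genes, non-coding ones included, the gene-end shares were 1.66%, 23.5%, 35.6% and 1.1% for H4K91Q, H4K91R, H4WT and the empty vector. A peak in the gene body away from the ends was present at 0 members for H4K91Q (6.36% of protein-coding genes), 4 for H4K91R (33%), 5 for H4WT (40.3%) and 2 for the empty vector (6.14%). In the 20 kb flanks the counts were 1 for H4K91Q (13.3%), 7 for H4K91R (52.7%), 7 for H4WT (60.3%) and 2 for the empty vector (8.39%). The body and flank counts of H4K91R and H4WT were within 2 genes of what those shares give over 10 genes. Among the 10 loci H4K91R gave 0.5 peaks for each H4WT peak, close to the 0.588 over the windows of all protein-coding genes and below the 0.711 of the complete lists. H4K91Q gave 0.0323 peaks for each H4WT peak at the members and 0.0859 over all coding windows.

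**Figure D1:**
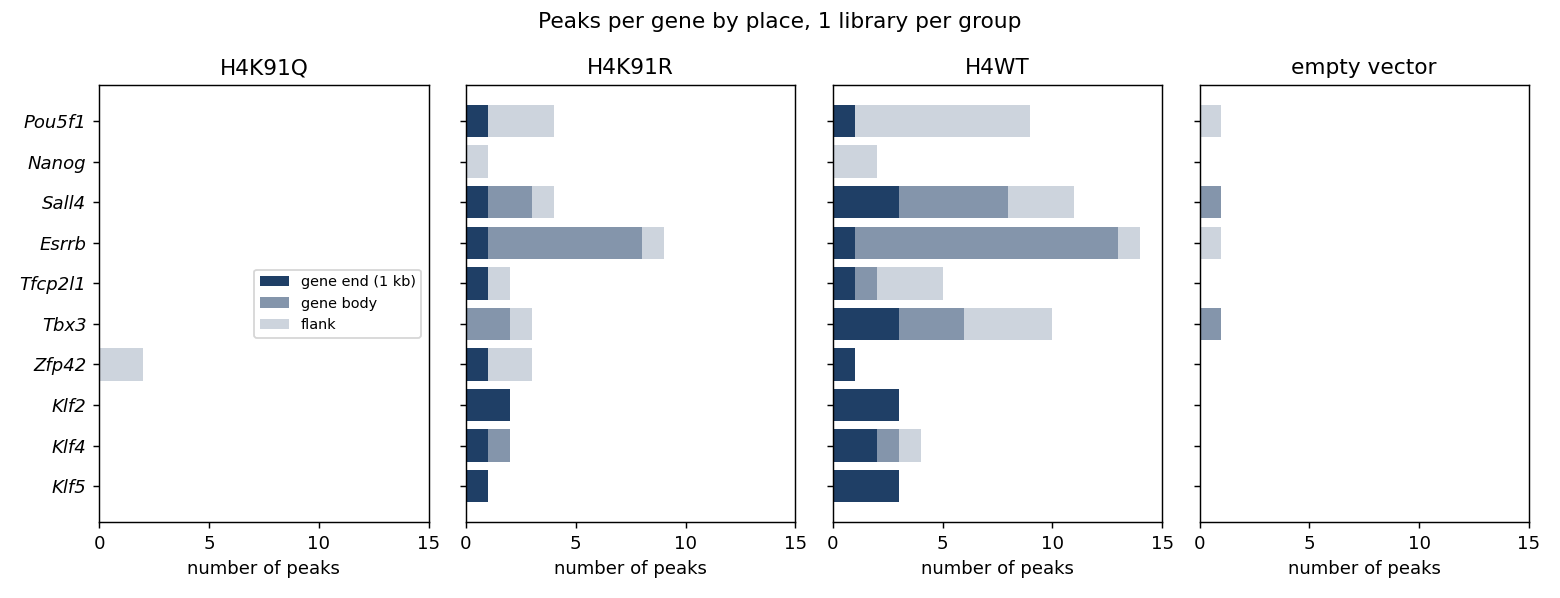
Number of HA peaks (horizontal axis) at each of the 10 genes (vertical axis) for H4K91Q, H4K91R, H4WT and empty vector, 1 library per group, divided into peaks within 1 kb of a gene end, elsewhere in the gene body and in the 20 kb flanks. H4K91Q has 2 peaks, both in the Zfp42 flank, and Esrrb has the most H4K91R and H4WT peaks, 9 and 14.

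Per length, the members carried 0.287 peaks per 100 kb for H4K91Q, 4.45 for H4K91R, 8.89 for H4WT and 0.574 for the empty vector. Over the windows of all protein-coding genes the densities were 0.519, 3.55, 6.04 and 0.23 in the same order. Peaks covered 0.175% of the members' windows for H4K91Q, 1.38% for H4K91R, 3.31% for H4WT and 0.112% for the empty vector. By density of H4WT peaks the loci ran from Pou5f1, at 20.1 per 100 kb, through Sall4 at 18.7 and Tbx3 at 18.5, down to Nanog at 4.24 and Zfp42 at 1.93. For H4K91R the order began again with Pou5f1, at 8.94 per 100 kb, and Sall4, at 6.79, but Zfp42 came next at 5.78, and Klf5 was lowest at 1.83. Pou5f1, Sall4 and Tbx3 were close to each other for H4WT, and with 1 library no spread is available to separate neighbours in either order.

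The promoter sequences of the members differ widely in CpG content, and the peaks over annotated starts are read beside them here. RefSeq promoters of build GRCm38.p6 (the assembly of mm10), running from 250 bases before to 50 bases after a start, were matched for 7 members, that is, without Klf5, Sall4 and Tbx3. There were 10 such promoters, with 2 each for Pou5f1, Nanog and Esrrb. The 250 bases before the first start are printed below for 4 genes, 3 with H4K91R and H4WT peaks over the 300-base promoter and, last, Klf4, which has none, with CG dinucleotides in capitals. At Pou5f1 the H4WT peak begins at the start itself, so it lies over the 50 bases after the start and over none of the bases printed.
Klf2 (chr8:72318812-72319061, plus strand): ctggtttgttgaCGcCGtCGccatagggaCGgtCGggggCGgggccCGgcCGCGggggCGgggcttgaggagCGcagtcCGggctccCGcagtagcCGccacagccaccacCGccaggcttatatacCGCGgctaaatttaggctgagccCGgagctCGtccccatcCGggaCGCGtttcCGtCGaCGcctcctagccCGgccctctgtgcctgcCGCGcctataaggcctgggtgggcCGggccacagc
Tfcp2l1 (chr1:118627695-118627944, plus strand): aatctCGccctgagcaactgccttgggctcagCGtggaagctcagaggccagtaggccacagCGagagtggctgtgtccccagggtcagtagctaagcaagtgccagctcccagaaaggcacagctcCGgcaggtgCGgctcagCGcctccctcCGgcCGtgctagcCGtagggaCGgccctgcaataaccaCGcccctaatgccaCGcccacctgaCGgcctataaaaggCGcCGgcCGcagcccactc
Pou5f1 (chr17:35505782-35506031, plus strand): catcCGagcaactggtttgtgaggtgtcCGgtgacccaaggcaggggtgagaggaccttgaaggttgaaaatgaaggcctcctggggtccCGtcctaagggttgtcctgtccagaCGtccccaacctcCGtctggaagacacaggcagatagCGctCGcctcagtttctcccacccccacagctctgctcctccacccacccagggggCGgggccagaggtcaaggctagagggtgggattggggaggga
Klf4 (chr4:55532476-55532725, minus strand): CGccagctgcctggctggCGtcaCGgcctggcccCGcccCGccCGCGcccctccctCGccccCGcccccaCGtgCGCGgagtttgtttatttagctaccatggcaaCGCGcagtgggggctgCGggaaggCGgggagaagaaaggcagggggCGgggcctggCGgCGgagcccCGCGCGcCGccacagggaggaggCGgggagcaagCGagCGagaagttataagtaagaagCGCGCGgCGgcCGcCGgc

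The observed over expected CpG ratio was 0.889 at Klf2, 0.656 at Tfcp2l1, 0.374 at Pou5f1 and 0.974 at Klf4, against a median of 0.384 over 32851 promoters. H4K91R and H4WT peaks both overlapped the first 3 of these windows, including that of Pou5f1, whose ratio is slightly below the median. The Klf4 window, at the 92.6 percentile of CpG ratio, was overlapped by no peak of any list, although H4WT peaks lay on either side of it. Of the 10 member promoters, 0 had an H4K91Q peak, 3 an H4K91R peak, 5 an H4WT peak and 0 an empty-vector peak. Among all promoters the shares were 0.502%, 13.7%, 31.0% and 0.228% in the same order. Among promoters with a ratio of 0.6 or more, 27.2% had an H4K91R peak and 65.1% an H4WT peak, and below 0.25 the shares were 2.29% and 4.1%. For H4K91Q the shares were 0.552% and 0.384% in the same classes.

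**Figure D2:**
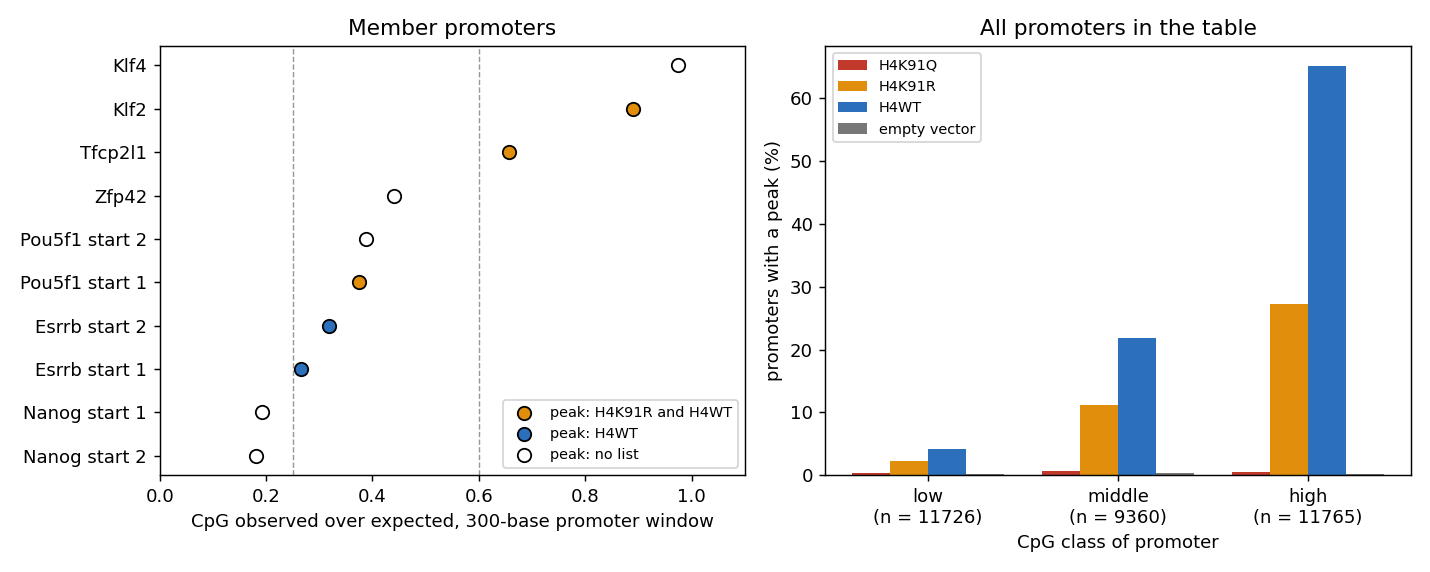
Left, observed over expected CpG ratio (horizontal axis) of the 10 promoters of 7 member genes, coloured by the lists with a peak over the 300-base window, with dashed lines at 0.25 and 0.6. Right, percent of all promoters with a peak (vertical axis) by CpG class for the 4 libraries, where H4WT reaches 65.1% and H4K91R 27.2% in the high class.

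The promoters of Nanog and Zfp42 had no peak over them in any list. They are the 2 member genes whose promoter holds the octamer core ATGCAAA, the recognition letters of Oct factors, on either strand, which is found in 4.63% of all promoters. The stretches around it are printed next, with the octamer core (read here as TTTGCAT) and the Sox-type motif ACAATG in capitals.
Nanog (chr6:122707396-122707442, plus strand): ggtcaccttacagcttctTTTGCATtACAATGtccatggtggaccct
Zfp42 (chr8:43307166-43307212, minus strand): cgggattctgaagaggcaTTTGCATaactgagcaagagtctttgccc

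At Nanog the octamer core begins 75 bases before the start, and the Sox-type motif follows after a gap of 1 base. The Sox-type motif, with or without the octamer core, occurs in 12.6% of promoters, among members also at the second start of Pou5f1 and the first of Esrrb. Both motifs occur together in 0.813% of promoters. At Zfp42 the octamer core begins 185 bases before the start, with no Sox-type match in its window. Searched on both strands, the GC box GGGCGG was found at the first promoters of Pou5f1, Zfp42, Klf2 and Klf4 (35.7% of all promoters). The KLF-type letters CACCC, which can share a base with a GC box, were found at every member gene with a promoter except Klf4 (57.5%). The ESRRB-type AAGGTCA was found at no member promoter (4.72%) and the E-box CACGTG at Klf4 (7.15%). These letters were searched in 300-base windows only, and a match is no evidence of binding.

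Pou5f1, the POU-domain factor at the centre of the circuit, lies on chromosome 17 from 35506032 to 35510777 on the plus strand of mm10. Its locus had 0 H4K91Q, 4 H4K91R, 9 H4WT and 1 empty-vector peaks. The H4K91R peak over the start (35505915 to 35506356, authors' fold enrichment 5.22) and the H4WT peak there (35506032 to 35506508, fold 6.47) shared 325 bp, and their summits lay 188 bp apart. Both also lay within 1 kb of an end of the neighbouring gene Gm32362. No other peak fell within 1 kb of an end or inside the gene. The remaining H4K91R and H4WT peaks lay mostly downstream, in and beside the neighbouring genes Tcf19 and Cchcr1, with the strongest at 22.7 kb from the start for H4K91R (fold 5.62) and 22.8 kb for H4WT (fold 9.86). All 4 H4K91R peaks at this locus met an H4WT peak. The empty-vector peak (35524347 to 35524588) was met by the H4WT peak at 18.4 kb and by no mutant peak.

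Nanog, a homeodomain factor that stabilises self-renewal, lies on chromosome 6 from 122707489 to 122714633 on the plus strand. It had 0 H4K91Q, 1 H4K91R, 2 H4WT and 0 empty-vector peaks, all of them before the start. The H4K91R peak (122705712 to 122706211, fold 8.24) lay within the H4WT peak (122705682 to 122706349, fold 9.41), with summits 1.6 kb and 1.42 kb before the start. These stood at the 92.1 percentile of the H4K91R list and the 92.3 percentile of the H4WT list by the authors' fold. The H4K91R peak was the highest of all 31 at the members. The other H4WT peak lay 11.4 kb before the start, at an end of the pseudogene Gm10420. The stretch printed above, with the Oct and Sox letters, lies between the start and the peaks of both libraries. With windows of 2 kb in place of 1 kb, Nanog joined the members with a gene-end peak in both lists.

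Sall4, a zinc finger factor that partners with Pou5f1, lies on chromosome 2 from 168748332 to 168767201, and distances are given from its lower-coordinate end. It had 0 H4K91Q, 4 H4K91R, 11 H4WT and 1 empty-vector peaks. The gene body held 2 H4K91R peaks and 5 H4WT peaks, clustered between 1.94 and 7.84 kb. H4WT was highest in neighbouring peaks at 7.14 kb (fold 9.5) and 7.72 kb (fold 9.46). The second of these overlapped the H4K91R peak of highest fold at this gene (6.68) and also the empty-vector peak, so the place was recovered without tagged histone. At the gene ends the lists differed: the H4K91R peak lay at the lower end (168747168 to 168747386, fold 4.35), and 3 H4WT peaks lay at the upper end, where the long non-coding gene Gm14261 overlaps Sall4. The summit of that H4K91R peak lay 1.11 kb outside the gene, so the peak only reached into the 1 kb window. With the summit required inside the window, H4K91R was at the ends of 7 members (36.8% of protein-coding genes), without Sall4. H4K91R and H4WT also had a peak at an end of the neighbour Atp9a.

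**Figure D3:**
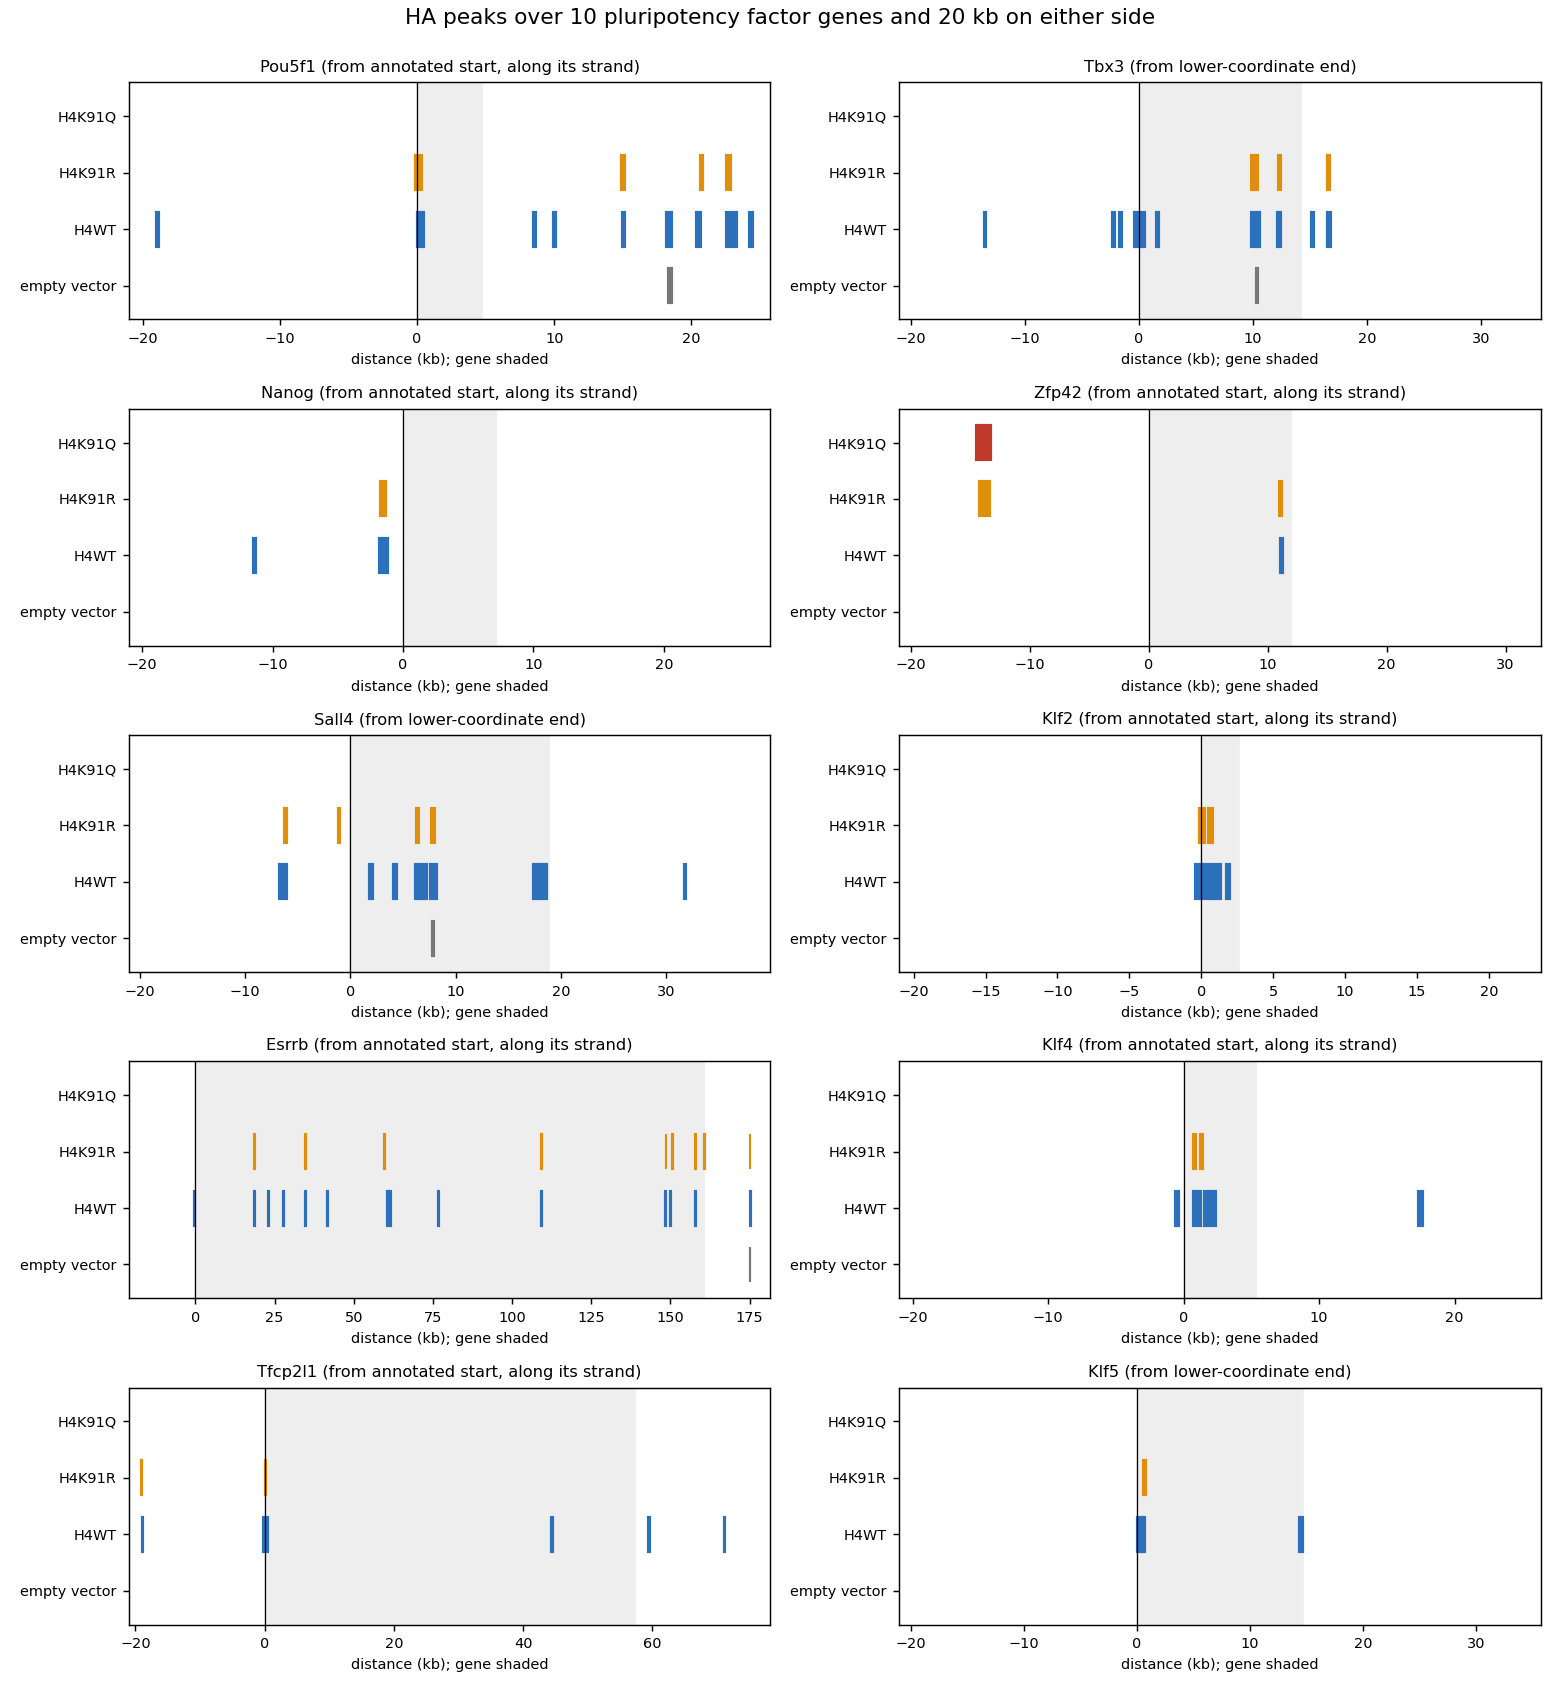
Position of every HA peak (bars, outlined so that narrow peaks stay visible) over each of the 10 genes and 20 kb on either side, in rows for H4K91Q, H4K91R, H4WT and empty vector. The horizontal axis is distance in kb from the annotated start along the strand, or from the lower-coordinate end for Klf5, Sall4 and Tbx3, and the gene is shaded. The 2 H4K91Q peaks lie in the Zfp42 flank, above 2 H4K91R peaks and with no H4WT peak.

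Esrrb, an orphan nuclear receptor that can stand in for Nanog in reprogramming, spans chromosome 12 from 86361117 to 86521628 on the plus strand and is the longest member, at 160512 bp. It had 0 H4K91Q, 9 H4K91R, 14 H4WT and 1 empty-vector peaks, the most of any member for both H4K91R and H4WT. These counts rest partly on length: per 100 kb the locus had 4.49 H4K91R and 6.98 H4WT peaks. Of these, 7 H4K91R peaks and 12 H4WT peaks lay in the gene body, and 5 H4K91R peaks there met an H4WT peak. The highest H4K91R peak lay 34.9 kb from the start (fold 7.08) and the highest H4WT peak at 109 kb (fold 8.39). H4WT peaks covered or touched both annotated promoters, at 86360743 to 86360959 and at 86421614 to 86421946. The first of these peaks also overlapped the neighbouring gene Gm40483, near an end of it. H4K91R had no peak over either promoter, and its nearest peak to the second start (86420774 to 86420988, fold 4.23) lay before it. At the far end H4K91R had a peak (86521674 to 86521921, fold 4.51) and H4WT had none. The place 175 kb from the start was held by H4K91R, H4WT and the empty vector alike.

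By the number of peaks at ends, in the body and in the flanks over the 4 libraries, the coding gene most like Esrrb was Tbc1d22b, which differed by 2 peaks in sum. Acvr2b, an activin receptor gene, and Cacna1c, a calcium channel gene, each differed by 4. The lengths of these genes were 57128, 40566 and 610145 bp, so the likeness is of peak numbers and not of density. Presence or absence over the 12 cells of that grid was shared with 284 other coding genes for Esrrb, 797 for Nanog, 675 for Klf2 and Klf5, and 61 for Zfp42, the fewest of the 10.

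Tfcp2l1, a CP2-family factor downstream of LIF, lies on chromosome 1 from 118627923 to 118685168 on the plus strand. Its locus had 0 H4K91Q, 2 H4K91R, 5 H4WT and 0 empty-vector peaks. At the start, the H4K91R peak (118627901 to 118628194, fold 6.01) lay within the H4WT peak (118627729 to 118628455, fold 7.25). Both libraries had a further peak about 19 kb upstream, at an end of Clasp1, a microtubule-binding protein gene. The H4WT peaks 44.5 kb, 59.5 kb and 71.2 kb from the start had no H4K91R partner. Tfcp2l1 was the member whose start peak stayed in both lists when each tagged list was shortened to its 14314 peaks of highest −log10 q.

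Tbx3, a T-box factor of the LIF response, lies on chromosome 5 from 119670534 to 119684724. It had 0 H4K91Q, 3 H4K91R, 10 H4WT and 1 empty-vector peaks. H4WT had 2 peaks at its lower end, the wider from 119670299 to 119671030 (fold 8.33), where the antisense gene Tbx3os1 overlaps it. At the upper end H4WT had 1 peak (fold 4.82), which also lay at an end of Tbx3os2. H4K91R had no peak at either end of Tbx3. Its 3 peaks, at 10.1, 12.3 and 16.6 kb from the lower end, all met H4WT peaks, whose summits lay at 10.3, 12.4 and 16.6 kb. The first of these places, with fold 7.32 in H4K91R and 10.4 in H4WT, also overlapped the empty-vector peak.

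Zfp42, the zinc finger gene known as a marker of naive cells, lies on chromosome 8 from 43295067 to 43307009 on the minus strand. It was the single locus with H4K91Q peaks and the single locus with fewer H4WT peaks than H4K91R peaks, with 2 H4K91Q, 3 H4K91R, 1 H4WT and 0 empty-vector peaks. The H4K91Q peaks ran from 43320325 to 43321241 (917 bp, fold 7.37) and from 43321258 to 43321561 (304 bp, fold 4.65), with summits 14.0 and 14.4 kb upstream of the start. The H4K91R peaks there ran from 43320381 to 43321042 (fold 7.6) and from 43321126 to 43321340 (fold 3.6), so the pair of mutants shared this place. In the complete H4K91Q list 54.0% of peaks met an H4K91R peak and 19.5% an H4WT peak, so such sharing is common in that list. The wider H4K91Q peak stood at the 88.3 percentile of its list and the wider H4K91R peak at the 89.2 percentile of its own. The narrower H4K91Q peak stood at the 34.7 percentile, and the narrower H4K91R peak, which alone met it, at the 1.06 percentile. The nearest H4WT peak lay 24.3 kb away, at the far end of Zfp42, where H4WT (43295729 to 43295990, fold 6.31) and H4K91R (43295792 to 43296087, fold 5.24) overlapped. The next H4K91Q peak along the chromosome was 85.9 kb away, and the nearest coding gene other than Zfp42 was Triml2, 126 kb away. A place in the 20 kb flanks was not unusual for H4K91Q, which had a flank peak at 13.3% of protein-coding genes. This H4K91Q place is near Zfp42 by distance alone, and no value here links it to that gene.

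For the other 9 members the nearest H4K91Q peak lay between 21.9 kb (Sall4) and 894 kb (Tbx3) from the gene. It was 66.3 kb from Nanog, 67.6 kb from Pou5f1, 126 kb from Tfcp2l1, 145 kb from Klf5, 391 kb from Klf4, 404 kb from Esrrb and 499 kb from Klf2. The median over all 10 was 135 kb, against 110 kb over all protein-coding genes.

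Klf2, Klf4 and Klf5 are zinc finger factors with overlapping roles in naive cells, and their peaks lay at the gene itself, apart from 1 H4WT peak in a flank of Klf4. With flanks of 50 kb Klf2 had 1 further H4K91R peak and 7 further H4WT peaks. Klf2 (chromosome 8, 72319062 to 72321654, plus strand) had 0 H4K91Q, 2 H4K91R, 3 H4WT and 0 empty-vector peaks, all within 1 kb of an end. At 2593 bp the gene lies mostly inside those end windows. With end windows of 500 bp, 1 of the H4WT peaks counted as gene body. An H4WT peak of 1458 bp ran from 72318946 to 72320403 with fold 11.7, the highest and widest at any member and at the 98.2 percentile of the H4WT list. The H4K91R peaks, from 72318925 to 72319307 (fold 5.26) and from 72319554 to 72319877 (fold 5.08), both met it but stood at the 47.0 and 39.4 percentiles of the H4K91R list. The CpG-dense sequence printed for Klf2 ends at the start, which the H4WT peak and the first of these H4K91R peaks cover.

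Klf4 (chromosome 4, 55527137 to 55532475, minus strand) had 0 H4K91Q, 2 H4K91R, 4 H4WT and 0 empty-vector peaks. Its strongest H4WT peak (55530106 to 55530960, fold 10.2) lay in the gene, 2.2 kb from the start, and met no H4K91R peak. The H4K91R peaks, with folds of 4.38 and 3.95, lay 1.29 and 0.83 kb inside the gene and met the next H4WT peak (55531179 to 55531792, fold 6.85). Upstream of the start H4WT had 1 weak peak (fold 2.96), at the 0.205 percentile of its list, at an end of the neighbouring gene Gm12506. The H4WT peak of fold 6.85 and the H4K91R peak of fold 3.95 also came within 1 kb of an end of Gm12506. A last H4WT peak lay 17.5 kb from the start, beyond the far end.

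Klf5 (chromosome 14, 99298691 to 99313412) had 0 H4K91Q, 1 H4K91R, 3 H4WT and 0 empty-vector peaks, all within 1 kb of an end. The H4K91R peak (99299249 to 99299489, fold 5.19) and an H4WT peak (99299201 to 99299463, fold 5.36) at the lower end had summits 3 bp apart, the closest of any overlapping peaks at the members. H4WT also had a peak over the lower end itself (fold 6.31) and 1 at the upper end (fold 6.08).

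Across the members, 25 of 31 H4K91R peaks met an H4WT peak, or 80.6% (exact 95% interval 62.5 to 92.5, counting error only), against 55.2% of the complete H4K91R list. Peaks of 1 locus are not independent, so the interval is narrower than it should be. The complete list is not limited to windows of coding genes, and the share within those windows was not computed. In lists of equal length 6 of 9 member H4K91R peaks met H4WT, or 66.7% (29.9 to 92.5), against 34.0% of the list. From the other side, 23 of 62 H4WT peaks met an H4K91R peak, or 37.1%, close to the 38.5% of the complete H4WT list. The H4K91R peaks without H4WT were 3 at Esrrb, 1 at Sall4 and 2 at the upstream place of Zfp42. Merged, the tagged peaks made 67 places: 1 held by H4K91Q with H4K91R, 4 by H4K91R alone, 23 by H4K91R with H4WT and 39 by H4WT alone. Every member had at least 1 place held by H4K91R and H4WT together. The share of all coding genes with such a place was not computed, nor was the split of places. Any H4K91R peak stood at 71.7% of coding genes and any H4WT peak at 79.4%, so this is not shown to be particular to the members. Among 25 overlapping peak pairs the summits lay 3 to 372 bp apart, with a median of 101 bp, and the H4K91R peak was the narrower in 20. Requiring an overlap of 50% of each peak left 16 of 31 H4K91R peaks, or 51.6%, against 33.5% of the complete list.

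The empty-vector peaks at the members, at Pou5f1, Sall4, Esrrb and Tbx3, met 3 H4K91R and 4 H4WT peaks and no H4K91Q peak. For H4K91R that was 9.68% of the member peaks (exact 95% interval 2.04 to 25.8), against 2.56% of the complete list. For H4WT it was 6.45% (1.79 to 15.7), against 3.01%. Of the complete H4K91Q list 0.755% met an empty-vector peak, so 0 of 2 says little. No empty-vector peak at the members lay at a gene end. Without the empty-vector places H4K91R kept 28 peaks and H4WT 58, with the same number of members holding a gene-end peak, 8 and 9.

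By rank within their own lists, the H4K91R peaks had a median at the 39.4 percentile of fold and the H4WT peaks at the 50.4 percentile, so the members were not among the strongest loci of either list as a group. In the top 10% of the list stood 0 H4K91Q peaks, 1 H4K91R peak and 7 H4WT peaks. Those 7 were at Klf2, Tbx3, Klf4, Pou5f1, Nanog and, with 2, Sall4. Of these 8 peaks, 1 lay at a gene end, that of Klf2, and the H4K91R peak was that of Nanog. The H4WT peak at Tbx3 and the H4WT peak of lower fold among the 2 at Sall4 also overlapped an empty-vector peak. Ranks belong to lists of different length and show no change between libraries.

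**Figure D4:**
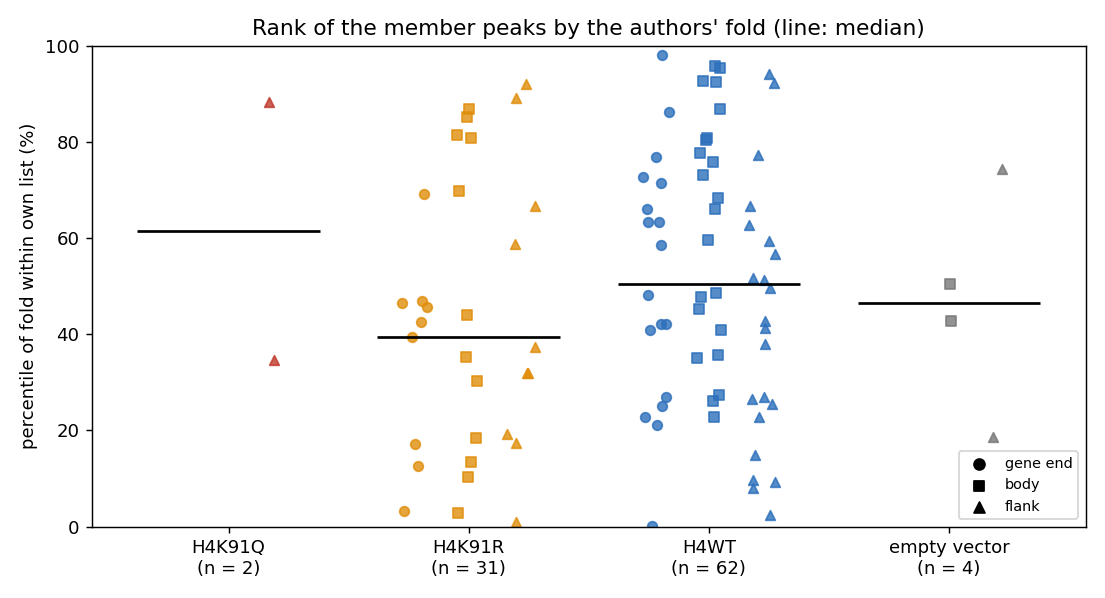
Percentile of the authors' fold enrichment within the peak's own list (vertical axis, percent) for every peak at the 10 genes in the H4K91Q, H4K91R, H4WT and empty-vector lists, with circles for gene ends, squares for gene bodies, triangles for flanks and a line at the median. H4K91R peaks have their median at the 39.4 percentile and H4WT peaks at the 50.4 percentile.

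For H4K91R the gene-end count rested in part on weaker peaks, and for H4WT it moved when the list was shortened further. When peaks under a −log10 q of 5 were left out, H4K91R remained at the ends of 4 members (25.2% of protein-coding genes), namely Pou5f1, Tfcp2l1, Zfp42 and Klf2, and H4WT at 9 (54.2%). In lists of equal length, H4K91Q was at 0, H4K91R at 1 (14.2%), Tfcp2l1, and H4WT at 3 (29.7%), Tfcp2l1, Tbx3 and Klf2, shares near those of all coding genes. With end windows of 500 bp H4K91R was at 4 (32.2%), Pou5f1, Esrrb, Tfcp2l1 and Klf2, and H4WT at 8 (54.2%).

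The start is a stricter place than either end. For the 7 members with a known strand, a peak lay within 1 kb of the outermost annotated start at 0 for H4K91Q (0.652% of coding genes with a known strand), 4 for H4K91R (32.4%), 5 for H4WT (54.2%) and 0 for the empty vector (0.692%). Pou5f1, Tfcp2l1, Klf2 and Klf4 had both H4K91R and H4WT there, Esrrb had H4WT, and Nanog and Zfp42 had neither.

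Counts at gene ends for other genes of the network and of the same families are set here beside the shares over all protein-coding genes, 1.29% for H4K91Q, 38.3% for H4K91R and 58.9% for H4WT. The lists hold 2 to 20 genes each, and no list was tested against those shares. Of 20 other pluripotency regulators, 0 had an H4K91Q peak at a gene end, 13 (65.0%) an H4K91R peak and 17 (85.0%) an H4WT peak. The highest H4WT folds at a gene end were at Zfp281 (11.1), a zinc finger partner of the core factors, Etv4 (11), an ETS factor, and Trim28 (10.8), a silencing corepressor. Tcl1, a coactivator of AKT, had an H4K91R peak (4.63) and no H4WT peak there. Of 6 LIF pathway genes, 0 had H4K91Q, 3 (50%) had H4K91R and 5 (83.3%) had H4WT, led by Il6st (10.8), the shared receptor subunit gp130, then Pim1 (8.2) and Socs3 (6.28). Of 10 exit and primed-state regulators the counts were 0 for H4K91Q, 7 (70.0%) for H4K91R and 8 (80.0%) for H4WT, with Tcf15 (12.2), Foxp1 (11.5) and Sox11 (9.33) highest for H4WT.

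Among paralogs, a gene-end peak was present at 0 of 14 other Klf genes for H4K91Q (1.29% of all coding genes), 9 (64.3%) for H4K91R (38.3% of all coding genes) and 11 (78.6%) for H4WT (58.9% of all coding genes). Klf9 (10.9), Klf13 (10.2) and Klf7 (8.75) led for H4WT, and Klf6 had an H4K91R peak (4.84) and no H4WT peak. Of 11 other Tbx genes the counts were 0 for H4K91Q, 8 (72.7%) for H4K91R and 9 (81.8%) for H4WT, led by Tbx21 (13.3), Tbx18 (10.7) and Tbx2 (10.6). Of 3 other Sall genes, H4K91R and H4WT both held Sall1 and Sall3. Of 2 other Esrr genes they held both, Esrra and Esrrg. Of the 5 genes related to Tfcp2l1, which itself had both, 0 had H4K91R at an end (exact 95% interval 0 to 52.2%, which holds the 38.3% of all coding genes) and 4 had H4WT, among them Grhl2 (10.9), Tfcp2 (8.48) and Ubp1 (6.41). None of the 71 entries of these lists had an H4K91Q or empty-vector peak at an end, where the shares over all coding genes, 1.29% and 1.67%, leave room for about 1.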

How the data were processed

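HA ChIP-seq peak lists of 4 mouse embryonic stem cell pulldowns (H4K91Q, H4K91R, H4WT, empty vector; 1 library each) were used, and the other 32 of 36 samples were not analysed here. Per the labels' protocols, chromatin was fixed with paraformaldehyde and sonicated, and NEBNext Ultra II kits were used for the libraries. Peaks were called by the authors with MACS2 on mm10, per the submitters' processing notes, each pulldown against its own line's input, as the peak names show. Aligner, versions, duplicate handling and threshold were each not given in the sources used here. The deposited fold enrichment is a ratio at the summit, used only within a list. The deposited −log10 q served as a filter, the deposited −log10 p only to break ties when lists were shortened. The deposited score equals 10 times −log10 q rounded down in 100% of peaks.

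Genes came from RefSeq (GRCm38.p6), whose table has gene ends without exons, so exons and introns were not separated. Strand came from the promoter table. A peak was placed at a gene end (any overlap with 1 kb either side), else in the body, else in the 20 kb flank. Lists overlapped where peaks shared at least 1 bp. No test was made, since each group has 1 library. Placing was tested on simulated peaks at the lower gene end, mid-gene and in the flank above the gene, with 100% of 2000 cases recovered. Upper ends, the flank below the gene and peaks across a window edge were not simulated. The members, gene lists and alternatives were chosen with earlier results of these data known. Named genes were the 10 members, genes at whose ends member peaks lay, per list up to 3 of highest H4WT fold and 3 with a mutant and no H4WT peak, and the 3 genes likest the member with most peaks. Python 3.11.15, pandas 2.3.3 and scipy 1.17.1 were used.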

Additional observations from a re-analysis of the deposited data

How the results depend on the processing

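In lists of equal length the members with a gene-end peak numbered 1 for H4K91R and 3 for H4WT, the fewest under any setting run, and their peaks 9 and 13. Without peaks under a −log10 q of 5, H4K91R had 4 such members and 15 peaks, and the empty vector had 0 peaks. Gene-end windows of 500 bp gave 4 members for H4K91R. Flanks of 10 kb left 0 H4K91Q peaks and 2 empty-vector peaks, and flanks of 50 kb gave 4 H4K91Q, 52 H4K91R and 97 H4WT peaks. An overlap of 50% of each peak took the share of H4K91R peaks with H4WT to 51.6%. Beyond what each setting builds in (fewer peaks, other windows), the cause was not tested. The other 42 recomputed values of the main counts and shares stayed within 1.5 times or within their interval. Among them were 0 members with an H4K91Q peak at an end. Only end windows of 2 kb could have raised that 0, since the other settings can only keep or lower it. The share of H4K91Q peaks with H4K91R rests on 2 peaks (interval 15.8 to 100%), so its fall from 100% to 50% still counted as staying. That fall came with the −log10 q filter, lists of equal length and the 50% overlap. Shortening the lists and removing empty-vector places have no value for the empty vector itself. No paired analysis was possible because each group has 1 library. Unknown depth limits every count, since a deeper library passes weaker peaks.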

Other observations

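Any H4K91Q peak over the gene and its flanks stood at 2 of 20 other pluripotency regulators, 2 of 6 LIF pathway genes, 2 of 10 exit and primed-state regulators, 1 of 14 other Klf genes, 0 of 3 other Sall genes, 2 of 11 other Tbx genes, 1 of 5 CP2 and Grhl genes and 1 of 2 other Esrr genes, against 18.9% of all protein-coding genes. The genes named next were chosen after their values were seen. Etv5, an ETS factor of the exit from the naive state, had 15 H4K91Q, 11 H4K91R, 4 H4WT and 0 empty-vector peaks over the gene and its flanks, with 0 H4K91Q peaks at a gene end. Tfcp2, the closest-named relative of Tfcp2l1, had 6 H4K91Q, 13 H4K91R, 10 H4WT and 0 empty-vector peaks. Esrra had 5, 10, 18 and 0 in the same order. Dppa3, a naive-state gene, had 2 H4K91Q, 1 H4K91R, 1 H4WT and 0 empty-vector peaks, none of them at a gene end. Klf8 and Tbx22 had 0 peaks in all 4 lists.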
